A study of Mus musculus with 18 samples.

Results

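The genes described here are 10 regulators of granulosa cell fate: Foxl2, Gata4, Gata6, Wt1, Foxo1, Foxo3, Nr2f2, Wnt4, Sox9 and Lhx9. They were taken by name, and their probe sets were those of the array annotated with only 1 gene symbol that is among these names. The rule found 30 probe sets for the 10 genes, of 45101 probe sets for 18193 named genes on the array. Of these 10 genes, 9 encode transcription factors and Wnt4 encodes a secreted ligand.

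Granulosa cells are the somatic cells of the ovarian follicle and arise from the same supporting cell precursors that form Sertoli cells in the testis. In mice, FOXL2 and the WNT4 signal hold these cells on the female course, whereas SOX9 drives the male course. WT1, LHX9 and the GATA factors act in the early gonad of either sex. Later in follicle growth, FOXO1 and FOXO3 act downstream of insulin and gonadotropin signals, which keep FOXO proteins out of the nucleus through the kinase AKT. NR2F2, also called COUP-TFII, is an orphan nuclear receptor known in the mouse ovary from stromal and theca cells.

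Cumulus cells, the granulosa cells that enclose the oocyte in antral follicles, were obtained from female mice and cultured, and each of 18 RNA samples went onto an array of its own, with 6 groups of 3. The groups were oocyte-free complexes cultured together with oocytes (here cocultures), oocyte-free complexes alone, and intact cumulus-oocyte complexes, each with and without estrogen. All 6 groups were cultured, so no group shows uncultured cells. Strain, age, estrogen dose and culture time are not given in the sources used here. Nothing there ties the samples of a group to different mice or dishes, so the p-values reflect sample-to-sample spread that could be purely technical.

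The title of oocyte-free replicate 1 with estrogen disagrees with its source name and treatment label, which describe culture without estrogen. The title was followed, and results that change when this array is counted as estrogen-free are marked. By the array names there were 3 series of 13, 2 and 3 arrays. The 3 oocyte-free arrays without estrogen all lay outside series 1 (2 in series 3, 1 in series 2), whereas all intact arrays lay in series 1, so for oocyte removal without estrogen no series holds both groups. Oocyte-free replicate 3 without estrogen, the array in series 2, often lay apart from the other 2 of its group, whose median SD of a probe set was 0.282, against 0.176 in intact complexes without estrogen. Array medians were between 5.51 and 5.71 log2 units.

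Markers of the labelled cell type were checked first. All 17 granulosa genes on the array, among them Foxl2, the inhibin gene Inha and the FSH receptor gene Fshr, lay above the array median on at least 14 of 18 arrays. Of 14 oocyte genes, Zp1, Zp2, Bmp15, Nobox, Mos, Oosp1 and Ddx4 were below the median on all 18 arrays, Zp3 and Nlrp5 above it on 1 and 2 arrays, and Gdf9, Dppa3, Figla, Ooep and Bcl2l10 above it on 12 to 18. Pecam1 and Ptprc of endothelial and blood cells were below it on all arrays, whereas Kdr was above it on all 18. Among theca and stroma genes, Cyp17a1 was above it on 1 array, and Ptch1, Pdgfrb and Acta2 on all 18. In such bulk samples, fewer cells of a type and less RNA per cell cannot be told apart.

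Of the 30 probe sets, 19 passed the filter on low values, which asked for a level above the array median on at least 3 of the 18 arrays. They cover 9 of the 10 genes, and Sox9 had no probe set that passed. Each gene is represented by its probe set with the highest mean. A gene is called where the adjusted p of limma, Benjamini-Hochberg adjusted over 25355 probe sets, is under 0.05. Differences are on the log2 scale, with the standard error (SE) of the fit over all 6 groups.

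Foxl2, Foxo3 and Wnt4 were each higher in oocyte-free than in intact complexes without estrogen and lower in cocultures than in oocyte-free complexes. Wt1 and Foxo3 were the members called on oocyte removal in both estrogen conditions at their representative probe sets. Of the 10 members, 6 had a promoter in the table used here (Foxl2, Foxo1, Foxo3, Nr2f2, Wnt4 and Lhx9). The 250 bases before the transcription start are shown for Foxo3, chosen by its calls in both conditions. Foxl2 and Wnt4 were added after their values were seen, because without estrogen they had its directions in both oocyte comparisons. Gata4 had these directions too, but no promoter was available. Over the 18 arrays, Foxo3 had r = 0.659 with Foxl2 and r = -0.0391 with Wnt4. The sequences are from RefSeq on GRCm38.p6, each given 5′ to 3′ on the gene's strand. They are Foxo3 at chr10:42276696-42276945 on the minus strand, Foxl2 at chr9:98955357-98955606 on the plus strand and Wnt4 at chr4:137277385-137277634 on the plus strand. Capitals mark a match to a searched motif.
Foxo3: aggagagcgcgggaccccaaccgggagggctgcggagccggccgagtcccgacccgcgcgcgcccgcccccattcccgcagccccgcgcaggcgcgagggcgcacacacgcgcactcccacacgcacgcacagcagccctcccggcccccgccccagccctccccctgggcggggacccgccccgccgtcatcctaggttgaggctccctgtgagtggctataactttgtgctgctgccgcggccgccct
Foxl2: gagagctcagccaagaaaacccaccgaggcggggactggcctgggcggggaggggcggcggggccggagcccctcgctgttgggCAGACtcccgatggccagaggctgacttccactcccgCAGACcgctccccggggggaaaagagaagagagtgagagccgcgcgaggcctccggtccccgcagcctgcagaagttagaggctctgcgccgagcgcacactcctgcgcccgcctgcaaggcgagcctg
Wnt4: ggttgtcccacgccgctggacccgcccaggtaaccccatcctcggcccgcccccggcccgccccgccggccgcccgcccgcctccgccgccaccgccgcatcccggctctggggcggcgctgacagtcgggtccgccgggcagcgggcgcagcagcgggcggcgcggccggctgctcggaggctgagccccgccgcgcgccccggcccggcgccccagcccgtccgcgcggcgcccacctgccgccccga
The motifs searched on both strands were GTAAACA of forkhead factors, AGATAA of GATA factors, TTCAAAG and CTTTGAT of TCF/LEF factors, CAGAC of SMADs, ACAAT of SOX factors and, for the estrogen receptor, GGTCA and TGACC with 3 bases between them. Foxl2 held the SMAD letters CAGAC at 2 places, which start 166 and 129 bases before the transcription start. The same letters stand in 42.2% of 32851 promoters of that length. Foxo3 and Wnt4 held none of the 7 motifs in this window. Forkhead letters, in 3.17% of all promoters, and the estrogen receptor letters, in 0.0639%, were in none of the 6 member promoters.

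**Figure D1:**
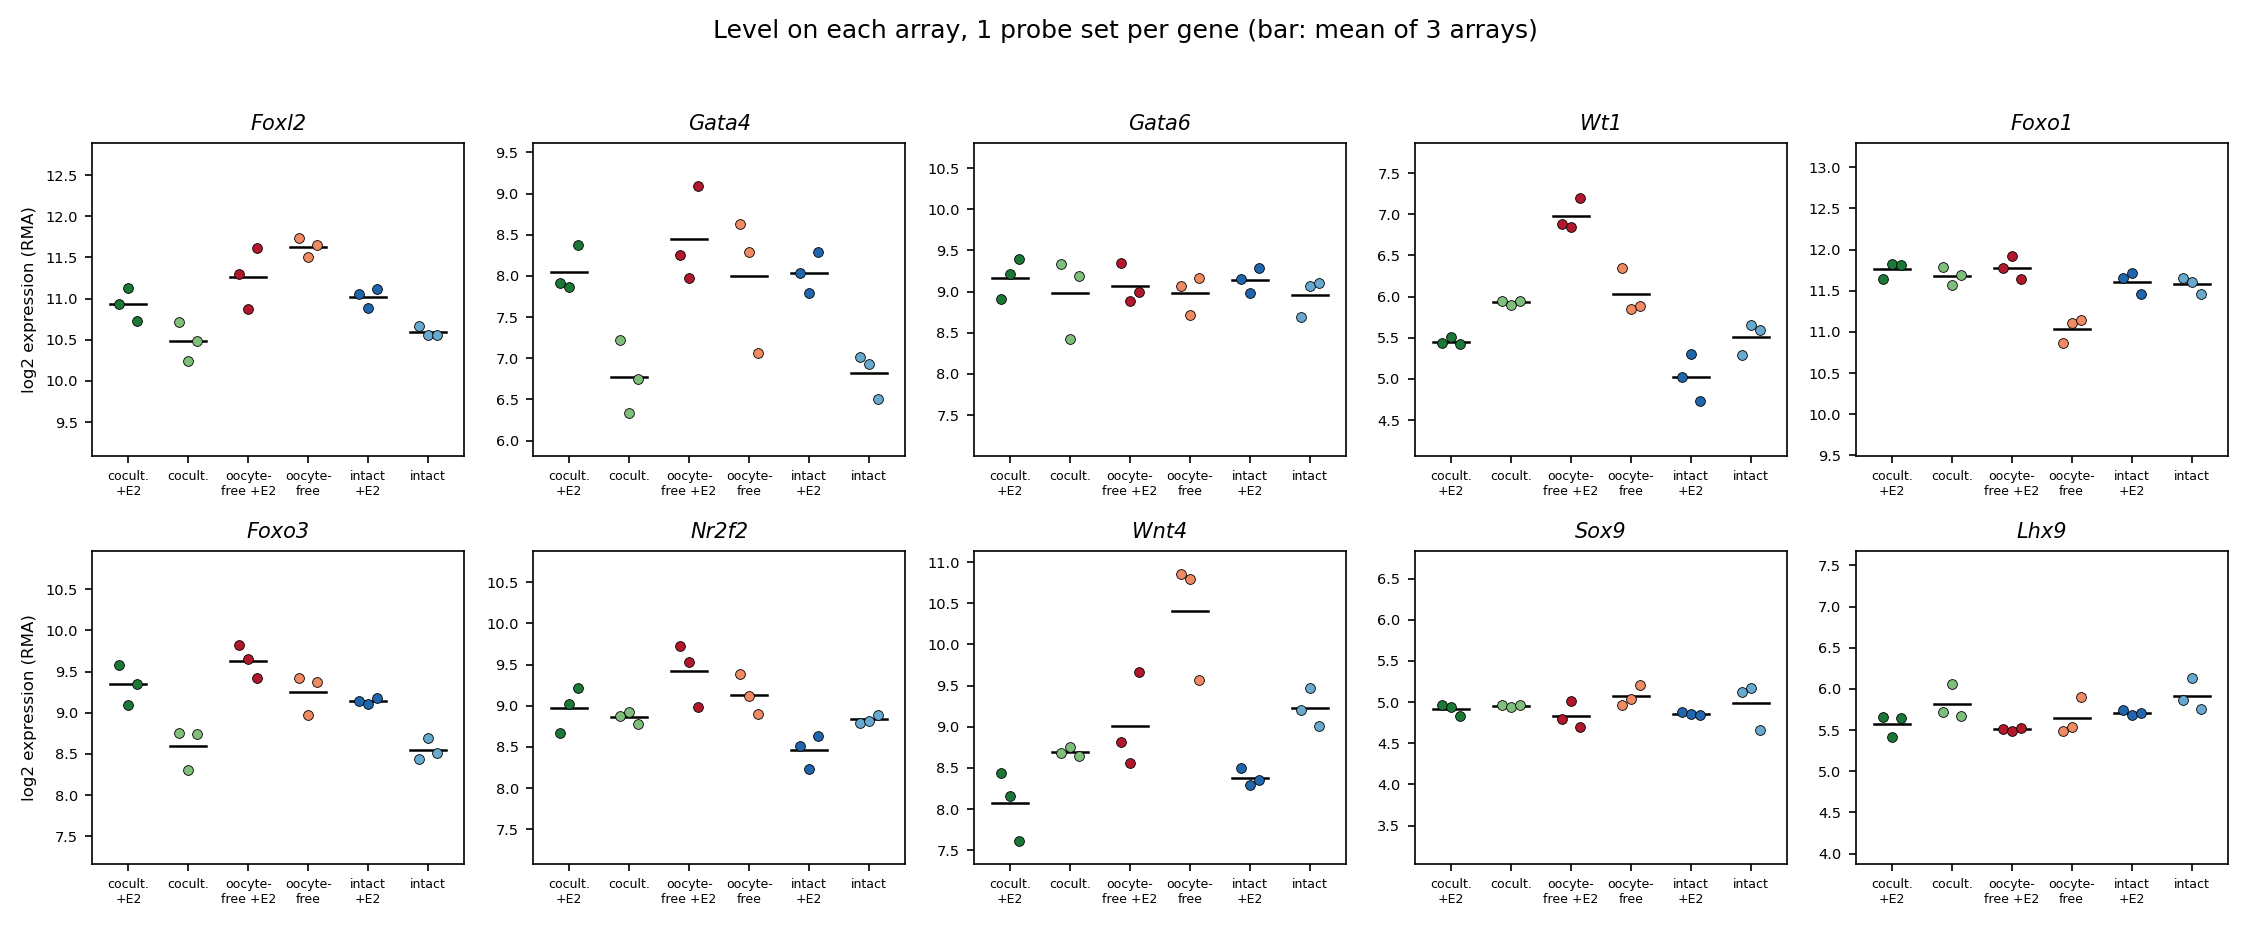
Log2 expression on each array of the probe set that represents each of the 10 genes, by group, with the mean of 3 arrays as a bar; every panel spans the same number of log2 units. Mean levels were highest in oocyte-free complexes without estrogen for Wnt4 and Foxl2 and in those with estrogen for Wt1. Foxo1 had its lowest mean in oocyte-free complexes without estrogen. Sox9 was not tested because it lay below the array median on all 18 arrays.

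Oocyte removal without estrogen asks what the absence of the oocyte does to these regulators. Of the 9 tested members, 5 rose (Foxl2, Gata4, Wt1, Foxo3 and Wnt4), 1 fell (Foxo1) and 3 were not called (Gata6, Nr2f2 and Lhx9). Over all 12246 genes tested, 37% were called, 17.1% higher and 19.9% lower. The members' 6 of 9 was above that share, mostly through higher levels. The members had been chosen with earlier results of these data known. Their median difference was 0.52, against 0.01 over all genes. With array series as a term in the fit, 2 of the 6 remained called, Foxl2 and Foxo3. No series holds both compared groups, so this adjustment is weak. It rests on 1 series 3 array of oocyte-free complexes with estrogen and 1 series 2 array of cocultures without it. Of 5 tested oocyte genes, 1 was called, Bcl2l10, which fell by 3.91 ± 0.35 on removal without estrogen and by 4.37 ± 0.35 with it, and rose by 3.71 ± 0.35 and 4.08 ± 0.35 in cocultures (limma adjusted p between 1.61e-07 and 8.53e-07). The median difference of the 5 tested oocyte genes on removal was 0.05 without and -0.04 with estrogen, against 0.01 and -0.05 over all genes. The summed log2 level of the 14 oocyte genes was 67.98 to 74.79 in oocyte-free complexes without estrogen, against 71.11 to 73.50 in intact ones. With estrogen it was 65.89 to 67.13 in oocyte-free and 70.96 to 71.66 in intact complexes, and in cocultures it was 68.56 to 72.78 with and 70.94 to 79.51 without estrogen. The part of oocyte RNA in the members' results was not tested.

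Oocyte removal with estrogen gave fewer calls. Wt1, Foxo3 and Nr2f2 rose, none fell and 6 were not called, where 28.3% of all genes were called, 12.1% higher and 16.1% lower. The share called, 3 of 9, was near that background. The median of the members was 0.40, against -0.05 over all genes. Both groups have arrays in series 1 here.

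Added oocytes, the comparison of cocultures with oocyte-free complexes, test whether oocytes outside the complex change the same genes. The comparison shares the oocyte-free arrays with oocyte removal. Without estrogen, Foxl2, Gata4, Foxo3 and Wnt4 fell and Foxo1 rose, 5 of 9 members, against 31.5% of all genes called, 18.9% higher and 12.7% lower. With estrogen, Wt1 and Wnt4 fell, 2 of 9, which is near the 22.6% of all genes called, 13.2% higher and 9.41% lower.

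Cocultures and intact complexes share no array. No member was called between them by limma without or with estrogen, and 0% of all genes were called in either. Members with an unadjusted p under 0.05 were Wt1 without estrogen, and Wt1 and Nr2f2 with it. No share of all genes was counted at that threshold. The largest member differences were -0.54 for Wnt4 without estrogen and 0.51 for Nr2f2 with it.

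**Figure D2:**
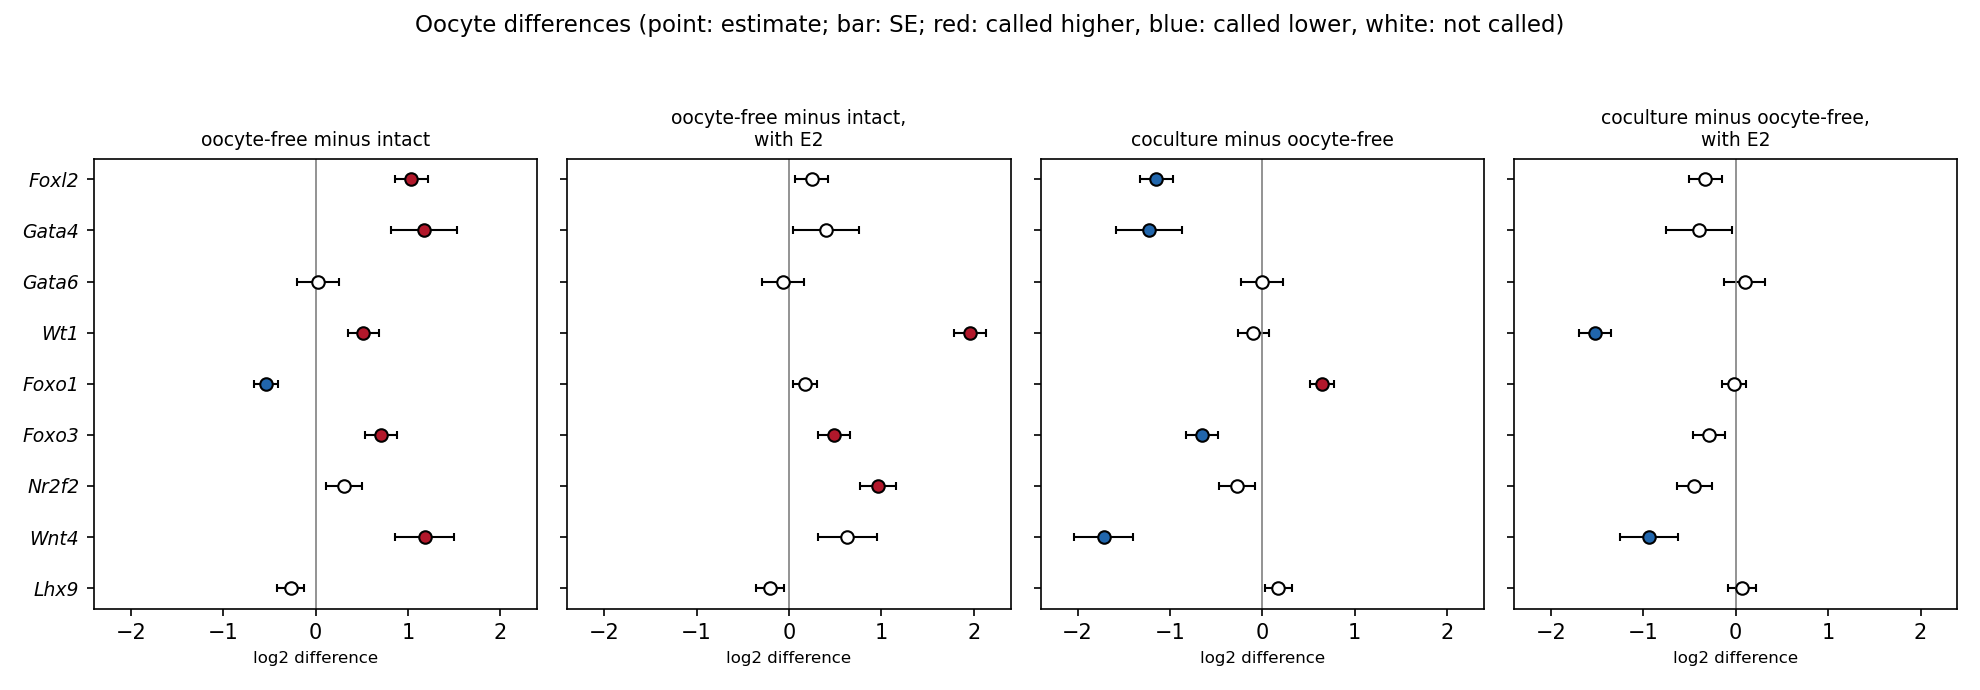
Log2 differences of the 9 tested genes for oocyte removal (oocyte-free minus intact) and added oocytes (coculture minus oocyte-free), without and with estrogen (E2); points are estimates, bars the SE of the fit, and filled points were called. Without estrogen 6 and 5 genes were called, with estrogen 3 and 2.

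Foxl2, the forkhead factor that keeps the granulosa identity, was represented by probe set 1456410_at, which lay between 10.24 and 11.74 on all arrays. Its levels were 11.74, 11.50 and 11.65 in oocyte-free complexes without estrogen, against 10.67, 10.56 and 10.56 in intact complexes. The arrays did not overlap, and Foxl2 rose by 1.03 ± 0.18 (SE, n = 3 per group; limma adjusted p = 0.000309), or 2.05-fold. Cocultures had 10.71, 10.24 and 10.49, all below the oocyte-free arrays and overlapping the intact ones. The difference of cocultures from oocyte-free complexes was -1.15 ± 0.18 (limma adjusted p = 0.000148). Within series 2, which holds 1 array of each, it was -1.41.

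With estrogen the Foxl2 groups ran together. Values were 10.93, 11.13 and 10.73 in cocultures, 11.30, 10.87 and 11.61 in oocyte-free complexes and 11.05, 10.88 and 11.12 in intact complexes. These 3 groups overlapped, and the difference on removal was 0.24 ± 0.18 (limma adjusted p = 0.357), or 0.07 within series 1. Whether estrogen changed the size of the removal effect was tested as an interaction, which came to -0.79 ± 0.25 (limma adjusted p = 0.15). Without oocyte-free replicate 3 with estrogen, the highest of its group, it was -0.96 (limma adjusted p = 0.0336), and the interaction with added oocytes, 0.82 ± 0.25 (limma adjusted p = 0.14), was 0.99 (limma adjusted p = 0.0348). Added oocytes with estrogen gave -0.33 ± 0.18 (limma adjusted p = 0.222), and -0.52 (limma adjusted p = 0.0481) without oocyte-free replicate 2 with estrogen, the lowest of its group. In order of mean level, oocyte-free complexes without estrogen were highest and cocultures without estrogen lowest, and the step between neighbours without overlap lay between cocultures with estrogen (10.93) and intact complexes without it (10.60). The second Foxl2 probe set lay below the array median on all 18 arrays, between 4.55 and 5.38.

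Of 17 tested granulosa identity genes, Foxl2 among them, 5 rose and 9 fell on oocyte removal without estrogen, where 17.1% of all genes were called higher and 19.9% lower. The list median was -0.55, against 0.01 over all genes. Bmp2, a BMP ligand gene, rose by 3.24 ± 0.20, and Inhbb, which encodes an inhibin and activin subunit, fell by 4.67 ± 0.33 (limma adjusted p = 7.62e-09 and 3.42e-08). The follistatin gene Fst, whose product binds activin and which is a known target of FOXL2 in mouse, had 10.08, 9.43 and 9.14 in oocyte-free complexes without estrogen, against 12.71, 12.92 and 12.95 in intact ones. It fell by 3.31 ± 0.21 (limma adjusted p = 9.31e-09). Esr2, the main estrogen receptor gene of granulosa cells, fell by 0.81 ± 0.25 (limma adjusted p = 0.0179), and Amh, which encodes anti-Müllerian hormone, differed by -0.26 ± 0.13 (limma adjusted p = 0.143). The other estrogen receptor gene, Esr1, is not on this list. It had 6.11, 5.98 and 7.70 in oocyte-free complexes without estrogen, against 9.09, 9.16 and 8.83 in intact ones and 9.49, 8.82 and 9.09 in cocultures. In cocultures without estrogen Fst rose by 3.29 ± 0.21 and Esr2 by 0.87 ± 0.25 relative to oocyte-free complexes (limma adjusted p = 1.25e-08 and 0.0144).

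Gata4 (probe set 1418863_at), a zinc finger factor of follicle development and steroid gene expression, had 8.63, 8.29 and 7.06 in oocyte-free complexes without estrogen, against 7.02, 6.93 and 6.50 in intact ones. Its lowest oocyte-free array, replicate 3, was close to the highest intact array. The difference was 1.18 ± 0.36 (limma adjusted p = 0.0178). It was 0.77 (limma adjusted p = 0.0831) with array series as a term, and the call also ended without oocyte-free replicate 1 (0.86), oocyte-free replicate 2 (1.03) or intact replicate 3 (1.02), with adjusted p between 0.0696 and 0.0923. With only the compared groups in the fit, adjusted p was 0.0622 on removal and 0.0683 for added oocytes. Cocultures without estrogen had 7.22, 6.34 and 6.75, which overlapped oocyte-free replicate 3. The difference of -1.22 ± 0.36 (limma adjusted p = 0.0168) was -0.62 (limma adjusted p = 0.1) with array series as a term, and -0.72 within series 2. It was lost without oocyte-free replicate 1 (-0.91), oocyte-free replicate 2 (-1.08) or coculture replicate 2 (-1.01), with adjusted p between 0.0666 and 0.0858.

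Gata4 levels with and without estrogen lay apart in the cultures that held oocytes. In cocultures the values were 7.92, 7.86 and 8.37 with estrogen, against 7.22, 6.34 and 6.75 without it. In intact complexes they were 8.04, 7.79 and 8.29 with estrogen, against 7.02, 6.93 and 6.50 without it. Neither pair overlapped, and the differences were 1.28 ± 0.36 and 1.22 ± 0.36, with limma adjusted p of 0.0666 and 0.0766, so neither was called. Without oocyte-free replicate 3 without estrogen, the same differences had adjusted p of 0.0146 and 0.0186. Gata4 was also called in cocultures without oocyte-free replicate 1 (limma adjusted p = 0.0469) or oocyte-free replicate 3 with estrogen (limma adjusted p = 0.0404). Within series 1 alone they were 1.06 (limma adjusted p = 0.0195) and 1.22 (limma adjusted p = 0.00363). In oocyte-free complexes the difference was 0.45 ± 0.36 (limma adjusted p = 0.458). The second Gata4 probe set, between 5.37 and 6.09, was called in no comparison.

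Gata6 (probe set 1425464_at), which encodes a factor that overlaps with GATA4 in granulosa cells, was called in no comparison at any of its 3 probe sets. Its representative ranged from 8.42 to 9.39 over all 18 arrays, and the 6 group means lay between 8.96 and 9.17, with each neighbour overlapping the next. On oocyte removal it differed by 0.03 ± 0.23 without estrogen and by -0.07 ± 0.23 with it. The other probe sets ranged from 7.91 to 8.72 and from 5.55 to 6.15.

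Of 13 tested GATA partners and targets, a list that also holds steroid synthesis genes, 3 rose and 4 fell on oocyte removal without estrogen, against 17.1% of all genes called higher and 19.9% lower. The cofactor gene Zfpm2, also called Fog2, rose by 1.23 ± 0.22 (limma adjusted p = 0.000459) and Zfpm1 by 0.77 ± 0.24 (limma adjusted p = 0.0234). Zfpm2 rose with estrogen too, by 0.78 ± 0.22 (limma adjusted p = 0.0165), and fell in cocultures by 0.84 without estrogen and 0.80 with it. Hsd17b1, an estradiol-forming enzyme gene, fell by 4.24 ± 0.21 and Fshr by 1.32 ± 0.27 on removal without estrogen (limma adjusted p = 5.99e-10 and 0.00137). The list median was 0.18, against 0.01 over all genes.

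Wt1 (probe set 1425995_s_at), which encodes the Wilms tumour zinc finger factor of early follicles and gonads, gave the largest difference of any member. With estrogen its levels were 6.88, 6.85 and 7.20 in oocyte-free complexes, against 5.02, 5.30 and 4.73 in intact ones. The groups were more than 1 log2 unit apart, a rise of 1.96 ± 0.17 (limma adjusted p = 4.18e-07), or 3.89-fold. Within series 1 it was 1.85. Cocultures with estrogen had 5.43, 5.51 and 5.42, all below every oocyte-free array, a fall of 1.52 ± 0.17 (limma adjusted p = 8.07e-06).

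Without estrogen Wt1 had 5.94, 5.90 and 5.95 in cocultures, 6.35, 5.85 and 5.88 in oocyte-free complexes and 5.29, 5.65 and 5.59 in intact complexes. Cocultures lay within the oocyte-free range, with a difference of -0.10 ± 0.17 (limma adjusted p = 0.721). The oocyte-free arrays lay above the intact ones by 0.52 ± 0.17 (limma adjusted p = 0.0284). That call ended without oocyte-free replicate 1 (0.36, limma adjusted p = 0.136), without intact replicate 1 (0.41, limma adjusted p = 0.126), with array series as a term (0.33, limma adjusted p = 0.387) and with only the compared groups in the fit (limma adjusted p = 0.104).

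The estrogen effect on Wt1 had opposite signs with and without oocytes. In oocyte-free complexes it was 0.95 ± 0.17 (limma adjusted p = 0.00322), whereas in cocultures it was -0.48 ± 0.17 (limma adjusted p = 0.186) and in intact complexes -0.49 ± 0.17 (limma adjusted p = 0.153). The test of the difference itself gave 1.44 ± 0.24 for the interaction with oocyte removal (limma adjusted p = 0.00354) and -1.43 ± 0.24 for that with added oocytes (limma adjusted p = 0.00433). Wt1 was the only 1 of 9 members called in either, against 2.6% and 2.21% of all genes. Within series 3, which has 1 oocyte-free array with and 2 without estrogen, the estrogen difference was 1.1. When the array with disagreeing labels was counted as estrogen-free, the 2 interactions came to 1.28 (limma adjusted p = 0.16) and -1.26 (limma adjusted p = 0.186), and the estrogen effect in oocyte-free complexes to 0.79 (limma adjusted p = 0.657). That effect was also not called with only its 2 groups in the fit (limma adjusted p = 0.104).

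Wt1 has a single probe set here, whose group means were between 5.02 and 6.98. In order of mean level, steps without overlap separated oocyte-free complexes with estrogen from those without, cocultures from intact complexes without estrogen, and cocultures from intact complexes with estrogen, which were lowest. Several of these levels are near the array medians. The genes closest to Wt1 over the 18 arrays were Lrch1 (r = 0.948), Ptprd (r = 0.931) and Myl6 (r = 0.928).

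Foxo1 (probe set 1416983_s_at), the forkhead factor abundant in growing granulosa cells, was the member that fell. It had 10.87, 11.11 and 11.14 in oocyte-free complexes without estrogen, against 11.66, 11.61 and 11.46 in intact ones. All oocyte-free arrays lay below all intact arrays, a fall of 0.54 ± 0.13 (limma adjusted p = 0.00491). It was -0.33 (limma adjusted p = 0.223) with array series as a term, -0.35 (limma adjusted p = 0.0739) after a second quantile normalization, and -0.35 (limma adjusted p = 0.15) with the disagreeing array counted as estrogen-free. Cocultures had 11.79, 11.57 and 11.69, all above the oocyte-free arrays, a rise of 0.64 ± 0.13 (limma adjusted p = 0.00162). Counting the disagreeing array as estrogen-free gave 0.46 (limma adjusted p = 0.0711), and the difference within series 2 was 0.43.

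With estrogen, Foxo1 had 11.64, 11.83 and 11.81 in cocultures, 11.78, 11.92 and 11.64 in oocyte-free complexes and 11.65, 11.72 and 11.46 in intact complexes. These ranges overlapped, with a difference on removal of 0.17 ± 0.13 (limma adjusted p = 0.388). In oocyte-free complexes the arrays with estrogen all lay above those without, a rise of 0.74 ± 0.13 (limma adjusted p = 0.00292), and within series 3 the difference was 0.65. It was 0.56 (limma adjusted p = 0.661) with the disagreeing array counted as estrogen-free, and not called with only the 2 groups in the fit (limma adjusted p = 0.139). The interactions were 0.71 ± 0.19 (limma adjusted p = 0.0658) and -0.66 ± 0.19 (limma adjusted p = 0.0981). The first was called without oocyte-free replicate 3 (limma adjusted p = 0.0442) or without oocyte-free replicate 3 with estrogen (limma adjusted p = 0.0358).

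The other tested Foxo1 probe sets also had their lowest mean in oocyte-free complexes without estrogen. Probe set 1416982_at had 8.95, 9.21 and 9.77 there, against 10.36, 10.60 and 10.67 in intact complexes, a fall of 1.23 ± 0.36 (limma adjusted p = 0.0151). For 1416981_at the estrogen effect in oocyte-free complexes was called (0.89 ± 0.20, limma adjusted p = 0.0136), while oocyte removal (-0.38 ± 0.20, limma adjusted p = 0.157) and added oocytes (0.47 ± 0.20, limma adjusted p = 0.0931) without estrogen were not. Its arrays were 11.05, 11.06 and 11.06 in oocyte-free complexes without estrogen, and 1 coculture array at 11.01 was lower. For 1416982_at, added oocytes without estrogen gave 1.54 ± 0.36 (limma adjusted p = 0.00454). Within series 2 the added-oocyte difference without estrogen was -0.05 at 1416981_at and 0.27 at 1416982_at. The other probe set, 1456529_at, lay below the array median, between 4.73 and 5.38.

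Foxo3 (probe set 1434831_a_at), known in mouse as the factor that holds primordial follicles at rest and also expressed in granulosa cells, had 9.42, 8.97 and 9.37 in oocyte-free complexes without estrogen, against 8.44, 8.69 and 8.51 in intact ones. The groups did not overlap, a rise of 0.71 ± 0.17 (limma adjusted p = 0.00453). With array series as a term it was 1.09 (limma adjusted p = 0.00281). Cocultures had 8.75, 8.31 and 8.74, all below the oocyte-free arrays, a fall of 0.65 ± 0.17 (limma adjusted p = 0.00917). With only these 2 groups in the fit it was not called (limma adjusted p = 0.0701). Within series 2 it was -1.06.

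With estrogen Foxo3 had 9.58, 9.10 and 9.35 in cocultures, 9.82, 9.65 and 9.42 in oocyte-free complexes and 9.14, 9.11 and 9.18 in intact complexes. The oocyte-free arrays lay above the intact ones by 0.49 ± 0.17 (limma adjusted p = 0.0475) and overlapped the cocultures. Leaving out any 1 of 11 arrays ended that call, with differences between 0.39 and 0.50 and limma adjusted p between 0.0519 and 0.158. They were oocyte-free replicates 1 and 2 with estrogen, all intact arrays, coculture replicates 1 and 3 without estrogen and coculture replicate 3 with it. Counting the disagreeing array as estrogen-free gave 0.39 (limma adjusted p = 0.235). The call also ended without the filter (limma adjusted p = 0.0554) and with trend and robust eBayes (limma adjusted p = 0.0545), and within series 1 the difference was 0.59.

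Mean Foxo3 was higher with estrogen in each culture type, and cocultures were called at the representative probe set. There the difference was 0.74 ± 0.17 (limma adjusted p = 0.0219), with no overlap, and 0.60 within series 1. It was lost without coculture replicate 2 (0.60), coculture replicate 1 with estrogen (0.62) or coculture replicate 3 with estrogen (0.74), at adjusted p between 0.0822 and 0.105, with the disagreeing array counted as estrogen-free (limma adjusted p = 0.065) and with only the 2 groups in the fit (limma adjusted p = 0.104). In intact complexes it was 0.60 ± 0.17 (limma adjusted p = 0.0722), called without coculture replicate 2 (limma adjusted p = 0.0495), and in oocyte-free complexes 0.38 ± 0.17 (limma adjusted p = 0.195). At 1434832_at, the other tested probe set, estrogen effects were called in cocultures (0.65 ± 0.13, limma adjusted p = 0.00602) and in intact complexes (0.80 ± 0.13, limma adjusted p = 0.00106). There intact complexes had 8.00, 8.15 and 7.89 with estrogen, against 7.32, 7.13 and 7.20 without it. The oocyte removal difference at 1434832_at was 0.65 ± 0.13 without estrogen (limma adjusted p = 8e-04). With estrogen it was 0.27 ± 0.13 and not called (limma adjusted p = 0.134). Its added-oocyte difference without estrogen, -0.36 ± 0.13 (limma adjusted p = 0.0417), was smaller than at the representative, and -0.31 within series 2. The third probe set was below the array median throughout.

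The family member Foxo4 rose on oocyte removal by 0.68 ± 0.18 without estrogen and by 0.75 ± 0.18 with it (limma adjusted p = 0.00775 and 0.00551). Of 25 tested FOXO family genes and targets, 13 rose and 4 fell on removal without estrogen, against 17.1% of all genes called higher and 19.9% lower. With estrogen 15 rose and 2 fell, against 12.1% and 16.1% of all genes. Pdk4, a kinase gene that limits pyruvate oxidation, rose by 3.41 ± 0.27, the regulator gene Cited2 by 3.29 ± 0.21 and Sesn3, a stress-response gene, by 2.50 ± 0.17. Ccnd2, which encodes cyclin D2, fell by 5.14 ± 0.20, and it is also on the GATA list. Limma adjusted p for these 4 lay between 5.84e-11 and 8.88e-08. The list medians were 0.63 without and 0.68 with estrogen, against 0.01 and -0.05 over all genes, and Foxo1 and Foxo3 are not on the list.

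Of 15 tested genes of PI3K and AKT signalling upstream of FOXO factors, 9 rose and 0 fell on removal without estrogen, against 17.1% of all genes called higher and 19.9% lower. In cocultures without estrogen 0 rose and 7 fell, against 18.9% and 12.7% of all genes. Sgk1, an AKT-related kinase gene, rose by 1.97 ± 0.41 and Pik3r1, a PI3K regulatory subunit gene, by 1.40 ± 0.36. The catalytic subunit gene Pik3ca rose by 1.14 ± 0.19 and Rictor, of an mTOR complex, by 1.28 ± 0.33. Limma adjusted p for these 4 lay between 0.00026 and 0.00655. The list median on removal was 0.64, against 0.01 over all genes.

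**Figure D3:**
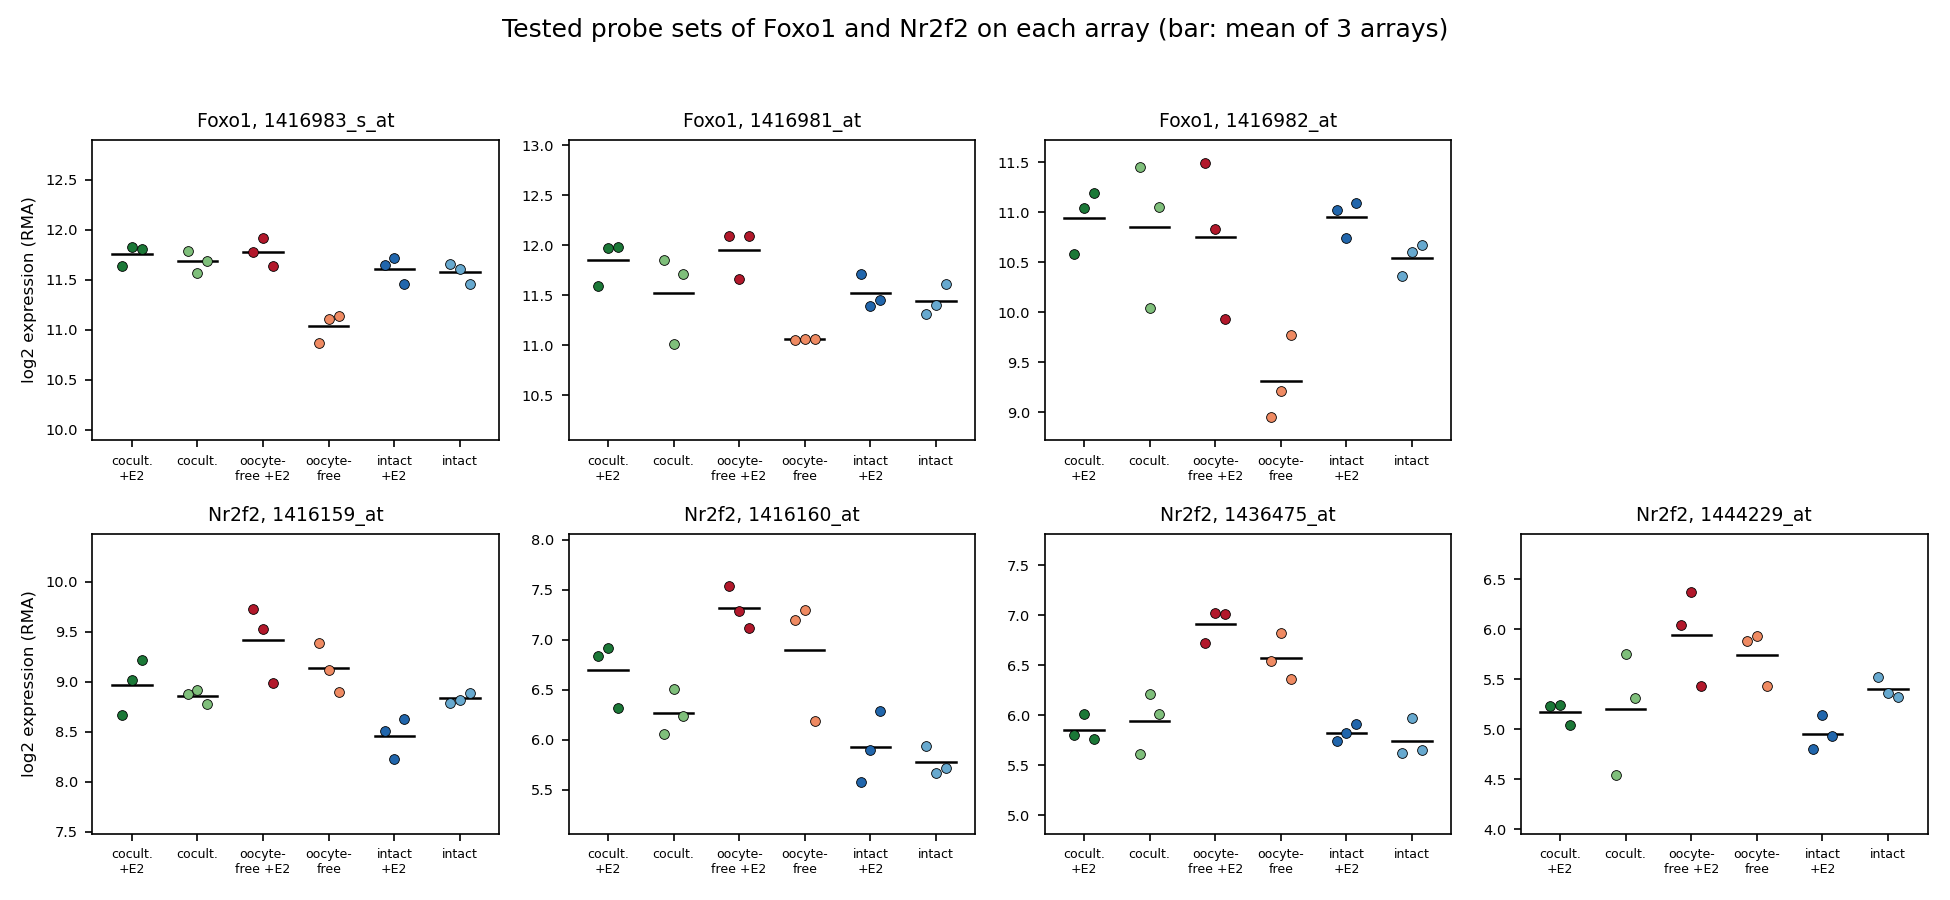
Log2 expression on each array for the tested probe sets of Foxo1 (upper row, 3) and Nr2f2 (lower row, 4), with group means as bars; levels are not comparable between panels. All 3 Foxo1 probe sets had their lowest mean in oocyte-free complexes without estrogen, and all 4 Nr2f2 probe sets had their highest mean in those with estrogen.

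Nr2f2 rose in oocyte-free relative to intact complexes with estrogen at all 4 tested probe sets, where 12.1% of all probe sets were called higher. The representative, 1416159_at, had 9.73, 9.53 and 8.99 in oocyte-free complexes with estrogen, against 8.51, 8.23 and 8.63 in intact ones. There was no overlap, a rise of 0.96 ± 0.19 (limma adjusted p = 0.00148), and within series 1 it was 1.17. The other 3 probe sets rose by 0.99 to 1.39.

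Without estrogen the Nr2f2 probe sets differed among themselves. The representative had 9.39, 9.12 and 8.90 in oocyte-free complexes, against 8.79, 8.82 and 8.89 in intact ones, which is 0.30 ± 0.19 higher (limma adjusted p = 0.25). At 1436475_at the values were 6.54, 6.82 and 6.36, against 5.62, 5.97 and 5.65 in intact complexes, a rise of 0.83 ± 0.17 (limma adjusted p = 0.00142). At 1416160_at the rise was 1.12 ± 0.26 (limma adjusted p = 0.00365), and 1444229_at was not called.

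With added oocytes, 1436475_at fell in both conditions, by 0.63 ± 0.17 without estrogen (limma adjusted p = 0.0114) and by 1.06 ± 0.17 with it (limma adjusted p = 3e-04). Within series 2, which has 1 array of each group, the difference without estrogen was -0.15, and it was 0.02, 0.32 and 0.32 at the other 3 tested probe sets. With estrogen it had 5.80, 6.01 and 5.76 in cocultures, against 6.72, 7.02 and 7.01 in oocyte-free complexes, with no overlap. Probe set 1416160_at was not called, with -0.63 ± 0.26 without estrogen (limma adjusted p = 0.0877) and -0.62 ± 0.26 with it (limma adjusted p = 0.113). The representative differed by -0.28 ± 0.19 without estrogen (limma adjusted p = 0.315) and by -0.45 ± 0.19 with it (limma adjusted p = 0.121). Without oocyte-free replicate 3 with estrogen that was -0.66 (limma adjusted p = 0.0235), which is also the value with estrogen within series 1. Probe set 1444229_at fell by 0.78 ± 0.26 with estrogen (limma adjusted p = 0.0489). Nr2f2 probe sets 1416158_at and 1431237_at did not pass the filter.

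Since Nr2f2 is a gene of theca and stroma cells, the 13 genes of that list on the array are given beside it. Their summed log2 level ran from 75.53 to 79.37 in oocyte-free complexes with estrogen, against 71.36 to 72.13 in intact complexes with estrogen. Without estrogen it was 78.23 to 82.88 in oocyte-free complexes, against 77.18 to 78.20 in intact ones. Of the 6 tested genes of the list, 3 rose and 1 fell on removal with estrogen, and 1 rose and 3 fell without, where 28.3% and 37% of all genes were called. Dcn, the proteoglycan gene decorin, rose by 4.48 ± 0.24 without estrogen, while Acta2, Gli1 and Ptch1 fell by 1.91, 1.68 and 1.22. Lum, Col1a1, Col1a2, Tcf21 and Thy1 were below the array median on all 18 arrays. The part of such cells in the Nr2f2 result was not tested. Of 11 tested orphan receptor genes, 2 rose on removal without estrogen, near the 17.1% of all genes called higher. They were Nr1d2, by 1.12 ± 0.23, and Esrra, by 0.85 ± 0.24, and the relative Nr2f1 lay between 2.50 and 3.66, below the filter.

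Wnt4 (probe set 1450782_at), the ligand that signals for the ovarian course in the gonad, had 10.86, 10.79 and 9.57 in oocyte-free complexes without estrogen, against 9.20, 9.47 and 9.01 in intact ones. Replicate 3 lay close to the intact arrays, though above them. Wnt4 rose by 1.18 ± 0.32 (limma adjusted p = 0.00883). It was 1.60 without oocyte-free replicate 3, 0.46 (limma adjusted p = 0.279) with array series as a term and 0.78 (limma adjusted p = 0.154) with the disagreeing array counted as estrogen-free. Cocultures had 8.68, 8.75 and 8.64, all below the oocyte-free arrays, a fall of 1.72 ± 0.32 (limma adjusted p = 0.000714), or 3.29-fold. With array series as a term it was -0.98 (limma adjusted p = 0.00931), and -0.82 within series 2.

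With estrogen Wnt4 had 8.44, 8.16 and 7.61 in cocultures, 8.81, 8.56 and 9.66 in oocyte-free complexes and 8.50, 8.29 and 8.35 in intact complexes. Oocyte-free replicate 3, in series 3, was the highest of these 9 arrays. Cocultures lay below oocyte-free complexes by 0.94 ± 0.32 (limma adjusted p = 0.047), a call that ended on leaving out any 1 of 13 arrays, with adjusted p between 0.0525 and 0.225. It was -0.61 (limma adjusted p = 0.225) without oocyte-free replicate 3 with estrogen, which is also the difference within series 1, and -0.71 (limma adjusted p = 0.206) without coculture replicate 3 with estrogen. The other 11 were oocyte-free replicate 1 and coculture replicate 2 with estrogen and all 9 arrays of the intact groups and of cocultures without estrogen. With array series as a term it was -0.57 (limma adjusted p = 0.056), and with the disagreeing array counted as estrogen-free -1.04 (limma adjusted p = 0.157). It was not called without the filter (limma adjusted p = 0.071), with a replicate block (limma adjusted p = 0.0541) or with only the 2 groups in the fit (limma adjusted p = 0.0931) either. On removal with estrogen the difference was 0.63 ± 0.32 (limma adjusted p = 0.165), or 0.30 within series 1.

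Mean Wnt4 was lower with estrogen in all 3 culture types, and oocyte-free complexes were called. There the values were 8.81, 8.56 and 9.66 with estrogen, against 10.86, 10.79 and 9.57 without it, which overlap in 1 array of each. The difference was -1.40 ± 0.32 (limma adjusted p = 0.0145), -1.16 within series 3, and -1.81 (limma adjusted p = 0.00127) without oocyte-free replicate 3. It was not called without replicate 1 or 2 of either group (-1.30 to -1.17 on the log2 scale, limma adjusted p between 0.0509 and 0.0756), nor with the disagreeing array counted as estrogen-free (-0.90, limma adjusted p = 0.779) or only the 2 groups in the fit (limma adjusted p = 0.183). In intact complexes it was -0.85 ± 0.32 (limma adjusted p = 0.192) and in cocultures -0.62 ± 0.32 (limma adjusted p = 0.391), each without overlap. The second probe set, 1441687_at, was called on removal (0.96 ± 0.28) and on added oocytes (-1.15 ± 0.28) without estrogen, with limma adjusted p of 0.0158 and 0.00601, and had r = 0.912 with the first over the 18 arrays. It was not called for estrogen in oocyte-free complexes (-0.86 ± 0.28, limma adjusted p = 0.0807) or for added oocytes with estrogen (-0.67 ± 0.28, limma adjusted p = 0.114).

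Among 27 tested genes of the Wnt pathway, 8 rose and 1 fell on removal without estrogen, and the same numbers did so with estrogen. A total of 9 of 27 is near the 37% of all genes called without and the 28.3% called with estrogen. By direction, 17.1% and 12.1% of all genes were called higher and 19.9% and 16.1% lower. The list's calls thus leaned to higher levels, which those of all genes did not. The receptor gene Fzd2 rose by 1.69 ± 0.41, the ligand gene Wnt2 by 1.46 ± 0.20 and the Dickkopf gene Dkk3 by 0.94 ± 0.23, and Tcf7l1, a repressor of Wnt targets, fell by 0.93 ± 0.19. Limma adjusted p for these 4 lay between 2.98e-05 and 0.00513. Axin2, a common readout of β-catenin signalling, differed by 0.24 ± 0.16 (limma adjusted p = 0.276), and Rspo1, which acts beside Wnt4 in the gonad, lay below the filter. The list median was 0.24 without estrogen and 0.05 with it, against 0.01 and -0.05 over all genes.

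Sox9, the factor of Sertoli cell fate, lay below the array median at all 3 probe sets on all 18 arrays. Its highest probe set, 1451538_at, ranged from 4.66 to 5.21, with group means from 4.83 to 5.07, each neighbour overlapping the next. The other 2 ranged from 3.54 to 4.17 and from 3.16 to 3.48. Sox9 was not tested, and whether it is expressed at a low level cannot be read from these values. The male-course genes Sox8 and Dmrt1 also lay below the filter, between 2.91 and 4.20 and between 3.45 and 4.21. Of 9 tested genes of a Sertoli and testis list, 1 rose and 2 fell on removal without estrogen, near the 37% of all genes called. Gdnf, a neurotrophic factor gene, fell by 2.78 ± 0.21, Dhh, a hedgehog ligand gene, by 2.06 ± 0.28, and Etv5 rose by 1.52 ± 0.43.

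Lhx9, a LIM homeobox factor of the early gonad, was called in no comparison. Its 1 tested probe set, 1431598_a_at, ranged from 5.42 to 6.13, near the array medians, and passed the median on 12 of 18 arrays. On removal without estrogen it differed by -0.27 ± 0.15 (limma adjusted p = 0.183), and by -0.40 (limma adjusted p = 0.047) without oocyte-free replicate 3. An untested probe set, 1419324_at, had 4.39, 5.24 and 5.12 in oocyte-free complexes without estrogen, against 4.04, 3.68 and 3.33 in intact ones. It was no higher than 4.04 on any other array. As it lay below the array median on all 18 arrays, no test was made. Of 7 tested early gonad genes, 2 rose (Numb and Nr5a1) and 1 fell (Map3k4) on removal without estrogen, near the 37% of all genes called.

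**Figure D4:**
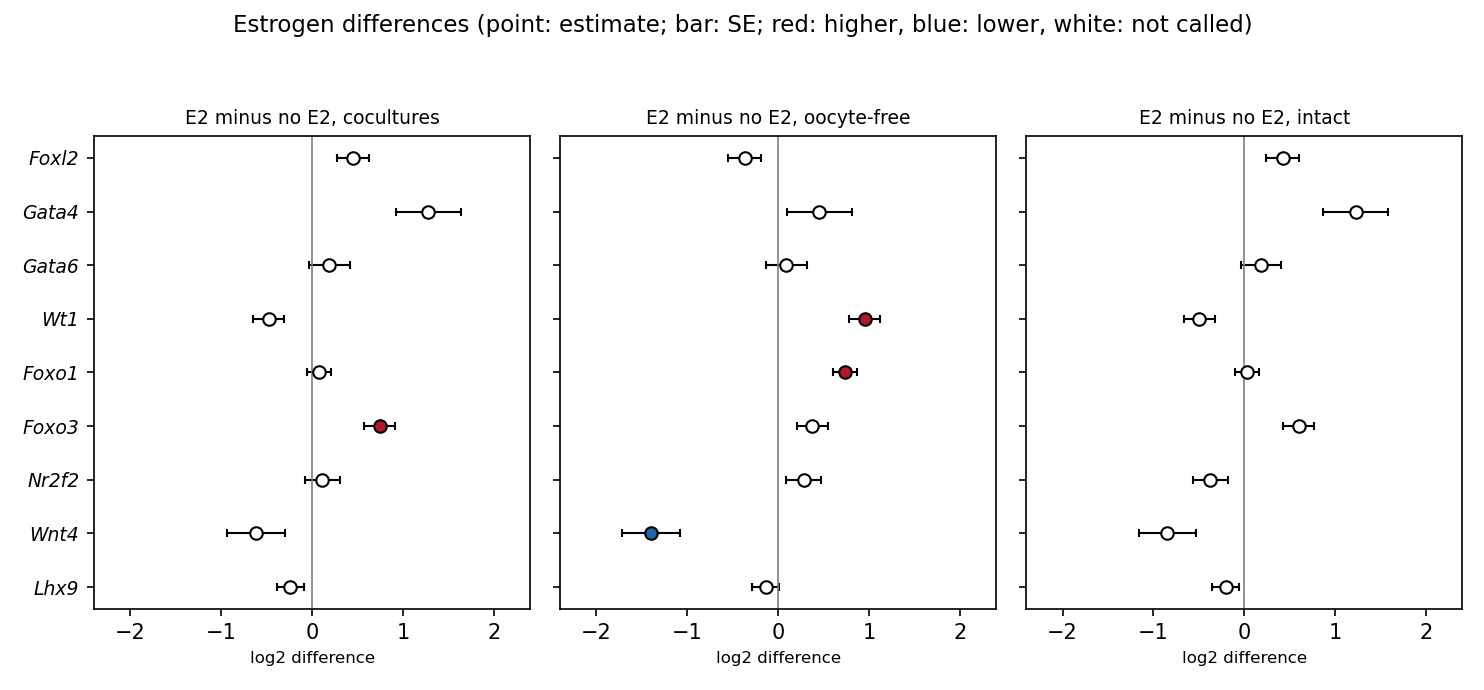
Log2 differences between cultures with and without estrogen for the 9 tested genes in cocultures, oocyte-free and intact complexes; points are estimates, bars the SE of the fit, and filled points were called. Calls were 1 in cocultures (Foxo3, higher), 3 in oocyte-free complexes (Wt1 and Foxo1 higher, Wnt4 lower) and 0 in intact complexes.

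The estrogen comparisons over the members were as follows. In cocultures 1 of 9 members was called, against 4.11% of all genes. In oocyte-free complexes 3 of 9 were called, against 8% of all genes. In intact complexes limma called 0 of 9, against 4.46% of all genes. Foxl2, Gata4, Wt1, Foxo3 and Wnt4 had an unadjusted p under 0.05 there, a threshold at which no share of all genes was counted. With only the 13 arrays of series 1 in the fit, Gata4, Foxo3 and Wnt4 were called in intact complexes, at limma adjusted p of 0.00363, 0.0186 and 0.0222. Their differences of 1.22, 0.60 and -0.85 are the same in both fits, since all intact arrays are in that series. The share of all genes called in the series 1 fit was not counted.

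Correlations of members over the 18 arrays are given as a description, since the arrays share groups and series. Foxo1 and Wnt4 ran opposite, with r = -0.81. Gata4 ran with Foxo3 (r = 0.764) and with Foxl2 (r = 0.722), and Wt1 with Nr2f2 (r = 0.71). By the likeness rule, the genes closest to Foxl2 were Mapk9 (r = 0.917), Axl (r = 0.916) and Plcg1 (r = 0.903). Those closest to Wnt4 were Adgrl1 (r = 0.934), Inf2 (r = 0.924) and Igfbp4 (r = 0.922). For Gata4 they were Arhgap35 (r = 0.944), Psen2 (r = 0.926) and Tap2 (r = 0.923), and for Foxo3 Slc9a3r1 (r = 0.926), Fhod3 (r = 0.907) and Polk (r = 0.901). Nr2f2 had its closest genes at r = 0.82 or less, led by Ccbe1.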

How the data were processed

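RNA of mouse cumulus cells was amplified in 2 rounds, per the labels' protocols, and measured on 1-colour Affymetrix arrays, 1 per sample. The deposited values are log2 expression values per probe set. The submitters' processing notes name RMA and Affymetrix Expression Console 1.1. Because RMA equalizes the arrays' distributions by quantiles, a common change of nearly all transcripts cannot be seen. Differences of dim probe sets are understated on such arrays. Precision is limited by having 3 arrays in a group. Scanner files were not used here.

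Of 45101 probe sets, 64 were controls, 34945 carried 1 gene symbol, 932 several and 9160 none; 34754 symbols were matched by Entrez identifier to a RefSeq table of GRCm38.p6. One probe set that names a member together with another gene was left out. Probe sets above the array median on at least 3 of 18 arrays were tested (25355). Group means of all 18 arrays were fitted with limma 3.58.1 in R 4.3.3 (lmFit, contrasts.fit, eBayes) for 11 contrasts, with Benjamini-Hochberg adjustment over all tested probe sets and a threshold of 0.05. The probe set of highest mean over all arrays stood for its gene. The fit was also run on simulated data, but the recovery it had to reach was loosened after the result was seen. That run is not used as support for any result here. All tests are two-sided.

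The groups were taken from the sample titles. No 2 arrays were identical. Title numbers run through the 6 groups once per replicate, and each such run was taken as a set. Deviations from group means had a median r of -0.01 between arrays of the same set (45 pairs). Between arrays of different sets it was also -0.01 (90 pairs). These correlations cannot show whether arrays of a set shared a culture, and the labels do not state it. Alternatives were the level of the fit, the filter, a second quantile normalization, array series as a term, a replicate block, array weights, fewer groups, trend and robust eBayes, the other group for the disagreeing array, agreement of all probe sets, leaving out each array, and, chosen after seeing the data, series 1 alone. The members and the gene lists were chosen with earlier results of these data known. Named genes were all members, up to 4 called genes per list with the largest difference on oocyte removal without estrogen, directly related genes, and the 3 genes most like each member. Figures were drawn with matplotlib in Python.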

Additional observations from a re-analysis of the deposited data

Results flagged for a closer look

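The difference made by estrogen was itself different between culture types for Wt1, by the limma test of the interaction. For oocyte removal the interaction was 1.44 (adjusted p = 0.00354), and for added oocytes -1.43 (adjusted p = 0.00433), with 3 arrays in each of the 6 groups. Both rest on the same oocyte-free arrays. Estrogen went with higher Wt1 in oocyte-free complexes, where all 3 arrays with estrogen exceeded all 3 without, and with lower means in cocultures and intact complexes. Over the alternatives, adjusted p ranged from 0.0012 to 0.16 for the first and from 0.00127 to 0.186 for the second. Both calls were lost in 1 alternative, where the array with disagreeing labels was counted as estrogen-free.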

How the results depend on the processing

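Numbers of members called are given here per comparison. Shares of all genes called are given for the main fit only, so changes in these counts cannot be set against changes over all genes. Oocyte removal without estrogen had 6, and 2 with array series as a term. Added oocytes without estrogen had 5, and 3 with only the groups compared or when all probe sets of a gene had to be called. Added oocytes with estrogen had 2. This became 4 with array weights, and 1 without the filter, with array series as a term, with only the groups compared, with the disagreeing array counted as estrogen-free, when all probe sets had to be called, or with the replicate block, in which Wnt4 was lost (adjusted p = 0.0541). The replicate block changed no other call of the 99 member results, and the labels do not state whether the title numbers pair the arrays. Estrogen in intact complexes had 0, and 2 with 1 probe set per gene, 3 with array series as a term, with only the groups compared or with series 1 alone, and 5 with array weights. Estrogen in oocyte-free complexes had 3, and 0 with only the groups compared or with the disagreeing array counted as estrogen-free. Estrogen in cocultures had 1, and 2 with 1 probe set per gene, array series as a term or series 1 alone, 4 with array weights and 0 with the disagreeing array counted as estrogen-free. The interaction with removal had 1, and 2 with 1 probe set per gene or with trend and robust eBayes, 4 with array weights and 0 with the disagreeing array moved. The interaction with added oocytes had 1, and 3 with array weights and 0 with that array moved. Leaving out each array in turn gave, in the order of the contrasts, 4 to 7 and 2 to 3 for oocyte removal without and with estrogen, 4 to 5 and 1 to 3 for added oocytes, 0 to 0 for both comparisons of cocultures with intact complexes, 0 to 1, 2 to 3 and 0 to 2 for estrogen in intact, oocyte-free and coculture groups, and 1 to 3 and 1 to 2 for the interactions. The causes were not tested. Of 2925 alternative values of the 99 member results, 2800 kept their side of the threshold, 78 lost a call, 47 gained one and 0 reversed a called direction; 65 changed sign between values that were not called. Dim probe sets, such as those of Sox9, Wt1 and Lhx9, limit what can be read.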
